A study of Mus musculus with 12 samples.

Results

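Progenitor cells and GFP-negative niche cells sorted from the dentate gyrus of adult mice were compared, in 4 libraries each, 8 of the 12 libraries of the series. The groups were taken from the sort markers in the labels, and every gene of the table was considered. All mice carried the LPA1-GFP reporter, STOCK Tg(Lpar1-EGFP)GX193Gsat/Mmucd, in which green fluorescent protein (GFP) is made under the control of the gene of the lysophosphatidic acid receptor LPA1. The line came from an FVB/N-Swiss Webster background and was rederived into C57BL/6, and the mice were 8 weeks old. Progenitor libraries took in 3 gates. The first was LPA1-GFP+EGFR+Prominin-1- in the labels. Cells negative for both of the latter markers formed another, LPA1-GFP+EGFR-Prominin-1-. The third is spelt there as LPA1-GFP+EGF-Prominin-1+. Niche libraries came from the LPA1-GFP- gate, which is set by the absence of the reporter and names no cell type. RNA of 1000 cells was amplified before sequencing. Whether a replicate was 1 animal or a pool is not said, so the p-values below measure the spread between these libraries.

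The dentate gyrus of the hippocampus is a region where neurons are still born in the adult mouse brain. Radial glia-like stem cells give rise to dividing intermediate progenitors, these give rise to neuroblasts, and neuroblasts mature into glutamatergic granule cells. Around them lie mature neurons, astrocytes, oligodendrocytes and their precursors, microglia, vessels and meninges, which together form the niche.

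Library totals, counted over the genes in the table, ran from 7597256 to 22854036 reads. Levels are reads per kilobase of exon, relative to library size (RPKM), scaled between libraries by the trimmed mean of M-values (TMM), and fold changes are differences of log2(RPKM + 1), progenitor minus niche, a scale on which genes of low level show too small a change. Replicate 1 stood apart in both groups. On the first principal component, which held 39.4% of the variance, niche replicate 1 lay at 133.4, the other niche libraries between -1.9 and 11, and the progenitor libraries between -42.3 and -24.0. Spearman correlations were 0.846 to 0.977 among progenitor libraries, 0.703 to 0.835 among niche libraries, and 0.693 to 0.755 between the groups. The median standard deviation of a gene was 0.428 on the log2 scale in progenitor and 0.961 in niche libraries. At the median the niche side thus spread more, though not for every gene.

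Of 7983 genes tested, 245 were higher in progenitor libraries (3.07%) and 299 were lower (3.75%) in limma's empirical Bayes test at an adjusted p of 0.05, with a median log2 fold change of 0.12 over all genes. The groups of 4 values did not overlap for 1260 genes (15.8%). Scaling by library size alone, which moved the median of all genes to 0.62, gave 891 higher and 202 lower. Leaving out niche replicate 1 gave 461 higher and 712 lower, and leaving out any single one of progenitor replicates 2 to 4 gave 110 to 117 higher and 184 to 185 lower. With the replicate number as a block, 291 were higher and 413 lower. Protein-coding genes made up 187 of the 245 higher calls (76.3%) and 274 of the 299 lower calls (91.6%), against 84.2% of the genes tested.

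**Figure D1:**
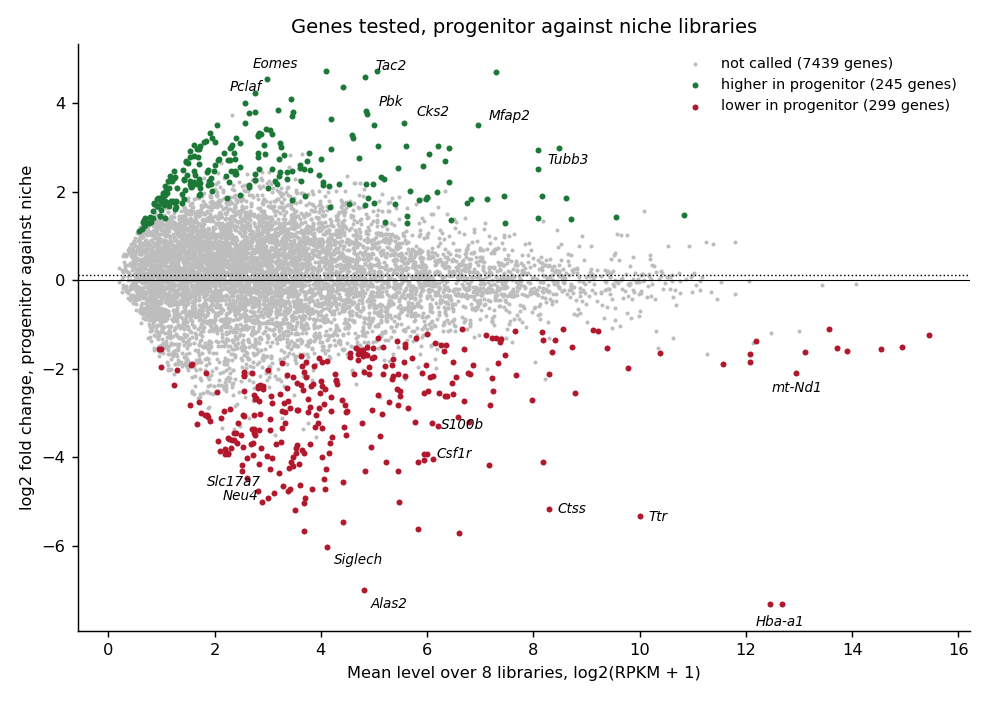
Log2 fold change, progenitor against niche (vertical axis), by mean level over the 8 libraries in log2(RPKM + 1) (horizontal axis), for the 7983 genes tested. Green points are the 245 genes called higher, red points the 299 called lower and grey points those not called, the dotted line is the median of all genes at 0.12, and the largest differences lie on the lower side, down to -7.32 for Hba-a1.

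In the progenitor libraries, genes of intermediate progenitors, young neurons, DNA replication and mitosis were higher. In the niche libraries, genes of microglia, red cells, mature neurons, oligodendrocyte precursors and endothelium were higher, as were mitochondrially encoded RNAs. None of 13 tested genes of oligodendrocytes and none of 14 of pericytes and smooth muscle was called. Over all genes tested, 6.81% were called, a share at which lists this short can hold none. In bulk libraries such as these, fewer cells of a type and less of its RNA per cell cannot be told apart.

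Of the genes behind the sort, Lpar1 and Prom1 were not analysed here. The third, Egfr, the receptor of epidermal growth factor and a marker of the gates, stood at 0.979, 6.87, 3.54 and 9.20 RPKM in progenitor replicates 1 to 4 and at 21.0, 7.94, 2.06 and 1.10 RPKM in niche replicates 1 to 4. Both groups overlapped throughout, with a log2 fold change of -0.20 (SE 0.80, adjusted p = 0.919). The progenitor gates held both EGFR-positive and EGFR-negative cells. Lpar2, another lysophosphatidic acid receptor, was at 1.27 to 2.88 RPKM in progenitor and 0.0304 to 0.166 RPKM in niche libraries, a log2 fold change of 1.41 (SE 0.34, adjusted p = 0.0277). That call was lost without progenitor replicate 2, 3 or 4 or niche replicate 2, 3 or 4, with adjusted p from 0.0557 to 0.0883. It was also lost with no filter on low values (adjusted p = 0.0554).

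Neurogenic factors came next. Of 31 genes listed for intermediate progenitors, only 10 were in the table, and all 10 passed the filter on low values. Of these, 4 rose in progenitor libraries and none fell, and the median log2 fold change was 1.31. Over all 7983 genes tested, 3.07% were called higher and 3.75% lower, and the counts of every list are to be read beside these shares. Members of this and the other lists that were absent from the table could not be tested. Absence may follow strand, since the named genes with an annotated overlap all lay on the plus strand. None of their partners on the minus strand was in the table, and the strand of all its genes is not reported here. Eomes (chr9:118478212-118486132), the T-box factor that defines intermediate progenitors, stood at 41.1, 30.5, 34.8 and 44.4 RPKM in progenitor replicates 1 to 4 against 0.940, 0.268, 0.436 and 1.07 RPKM in niche replicates. Every progenitor library was thus far above every niche library, and the log2 fold change was 4.54 (SE 0.49, adjusted p = 0.000245). Neurog2, a basic helix-loop-helix factor that commits cells to the neuronal fate, was at 9.71, 6.88, 10 and 12.4 RPKM against 0.373, 0.0763, 0.142 and 0.269 RPKM. The niche values of Neurog2 rest on 2 or 3 reads a library, and its log2 fold change was 3.13 (SE 0.48, adjusted p = 0.00169). Gadd45g, a gene induced by stress and during differentiation, was at 84.7 RPKM in progenitor replicate 1 and 262 to 292 RPKM in the others, against 9.69 to 52.6 RPKM in niche (log2 fold change 2.68, SE 0.55, adjusted p = 0.0112). Mfap4, a microfibril-associated glycoprotein, rose by 3.81 on the log2 scale (SE 0.50, adjusted p = 0.000717). Rnd2, a small GTPase of migrating neurons, was at 38.5 to 144 RPKM in progenitor and 32.9 to 116 RPKM in niche libraries and did not pass (log2 fold change 0.07, SE 0.51, adjusted p = 0.954).

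Genes of young neurons were also higher in progenitor libraries. Of 15 tested neuroblast genes, 6 rose and none fell, with a median of 1.84, and the count was 10 with the replicate block and 10 without niche replicate 1. Over all genes, higher calls went from 245 to 291 with the block and to 461 without that library. Tac2, the precursor of neurokinin B, was at 247, 131, 114 and 99.4 RPKM in progenitor against 1.95, 19.1, 3.94 and 2.81 RPKM in niche libraries. Its groups did not overlap, although niche replicate 2 was above the other 3, and its log2 fold change was 4.59 (SE 0.59, adjusted p = 0.000606). Tubb3, the neuronal beta-tubulin, was at 1209, 566, 567 and 454 RPKM against 176, 90.8, 90.9 and 112 RPKM. Tubb3 was therefore well above 0 in the niche too, and its log2 fold change was 2.51 (SE 0.38, adjusted p = 0.00169). Mex3a, an RNA-binding protein of dividing progenitors, rose by 3.27 (SE 0.60, adjusted p = 0.00594), and Dpysl5, a collapsin response mediator of growing neurites, rose by 3.01 (SE 0.55, adjusted p = 0.00546). Stmn1, a regulator of microtubules, was at 1538 to 2759 RPKM in progenitor and 381 to 1646 RPKM in niche libraries. Stmn1 did not pass with 8 libraries (log2 fold change 1.55, adjusted p = 0.0567) but did without niche replicate 1 (2.01, adjusted p = 0.00124) and with the replicate block (adjusted p = 0.00236).

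Among tested genes of radial glia and neural stem cells, 16 had a log2 fold change above 0 and 4 below. Of 34 listed, 20 were tested, 6 rose, 1 fell, and the median was 1.09. Without niche replicate 1, 9 rose and 1 fell, while all higher calls went from 245 to 461. Emx1, a homeobox factor of the dorsal telencephalon, was at 49.2, 27.8, 26.4 and 35.7 RPKM against 0.841, 2.75, 2.21 and 0.606 RPKM (log2 fold change 3.83, SE 0.52, adjusted p = 0.000866). Vnn1, a pantetheinase, was at 9.89 to 17.2 RPKM in progenitor libraries and at most 0.399 RPKM in niche libraries (log2 fold change 3.51, SE 0.49, adjusted p = 0.000947). Both genes separated the groups completely. Fabp7, the brain fatty acid binding protein of radial glia, was at 802 to 1904 RPKM against 383 to 512 RPKM (log2 fold change 1.42, SE 0.32, adjusted p = 0.0201). Its call was lost without progenitor replicate 3 or 4 or niche replicate 2 (adjusted p = 0.0664, 0.0774 and 0.0697), and with scaling by the median of ratios (adjusted p = 0.11). Sox1, a factor of neural precursors, was at 9.44 to 15 RPKM against 0.562 to 5.98 RPKM (log2 fold change 2.11, SE 0.58, adjusted p = 0.0464). It lost the call without any 1 of the 4 progenitor libraries or niche replicate 2 or 3, with adjusted p from 0.0818 to 0.17. Adjusted p for Sox1 was also 0.0527 with scaling by the median of ratios, 0.0651 with a pseudocount of 0.1 RPKM and 0.0635 with no filter. Id3, an inhibitor of helix-loop-helix factors that responds to bone morphogenetic protein, went the other way, at 65.5 to 246 RPKM against 242 to 950 RPKM. The groups of Id3 overlapped in 1 pair of libraries, its log2 fold change was -2.14 (SE 0.51, adjusted p = 0.0252), and adjusted p was 0.0705 to 0.0866 without progenitor replicate 2, 3 or 4 or niche replicate 2.

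Several textbook stem cell genes did not pass the test, and the groups of Sox9 and Pax6 did not overlap. Sox2, a core factor of neural stem cells, was at 32.6 to 45.5 RPKM in progenitor and 18.4 to 55.7 RPKM in niche libraries, a log2 fold change of 0.05 (SE 0.41, adjusted p = 0.962). Nes, the intermediate filament nestin, was at 2.23 to 3.74 RPKM against 0.0724 to 3.13 RPKM (0.73, SE 0.55, adjusted p = 0.488). Sox9 was at 138 to 200 RPKM against 62.5 to 120 RPKM and did not pass (0.89, SE 0.32, adjusted p = 0.124). Sox9 passed with all 12 libraries in the fit (adjusted p = 0.0437), under library size scaling (0.0233) and without both replicates 1 (0.0379). Pax6, at 8.79 to 12.1 RPKM against 1.47 to 3.70 RPKM, did not pass either (1.67, SE 0.51, adjusted p = 0.0701). Without niche replicate 1, adjusted p for Pax6 was 0.0195, and 5 other alternatives also took it under the threshold (adjusted p = 0.0115 to 0.0286). Of 12 Notch pathway genes, none was called, against 6.81% of all genes tested. In the Wnt, BMP and hedgehog list, 2 of 25 rose and 1 fell, with a median of 0.02. Sfrp1, a secreted inhibitor of Wnt ligands, was at 48.6, 38.6, 31.1 and 45.9 RPKM against 0.908, 0.426, 9.59 and 1.81 RPKM, rising by 3.79 (SE 0.64, adjusted p = 0.00344). Wnt8b, a Wnt ligand of the cortical hem, was at 2.02 to 6.72 RPKM against at most 0.129 RPKM (2.03, SE 0.42, adjusted p = 0.0112).

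**Figure D2:**
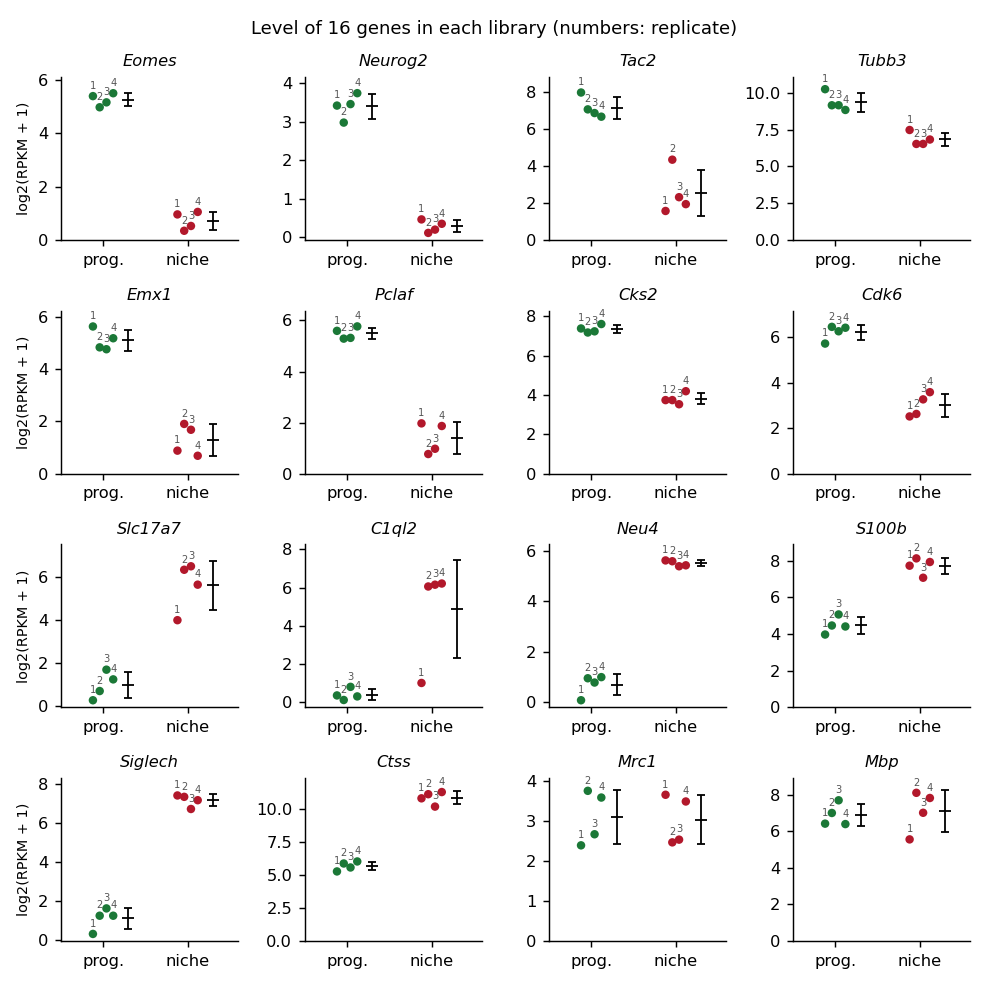
Level in log2(RPKM + 1) of 16 genes in each library, with the replicate number at each point and the mean with its SD (n = 4) beside each group. The upper 8 genes were higher in all 4 progenitor libraries than in any niche library, Slc17a7 to Ctss were higher in all 4 niche libraries, C1ql2 was low in niche replicate 1 at 0.972 RPKM, and the groups overlapped for Mrc1 and Mbp.

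Division genes formed the largest group of higher calls. The list for DNA replication held 25 tested genes of 54, of which 11 rose and none fell, with all 25 above 0 and a median of 1.74. The list for mitosis held 49 tested genes of 93, of which 19 rose and none fell, with 48 above 0 and a median of 1.86. Of all genes tested, 3.07% were called higher. Replication genes did not overlap between groups for 16 of 25 and mitosis genes for 29 of 49, against 15.8% of all genes. Without niche replicate 1, the called counts of replication and mitosis genes were 18 and 29, and without both replicates 1 they were 21 and 40. All higher calls also grew in these fits, from 245 to 461 and to 721.

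Pclaf (chr9:65890237-65903266), a clamp-associated factor that binds the replication clamp, was at 47.3, 38.1, 38.9 and 53.5 RPKM in progenitor against 2.91, 0.700, 0.962 and 2.64 RPKM in niche libraries. It rose by 4.10 (SE 0.50, adjusted p = 0.000416). Rrm2, the small subunit of ribonucleotide reductase that makes deoxynucleotides, was at 35.6, 81.2, 94.1 and 108 RPKM against 7.80, 4.01, 9.27 and 6.85 RPKM. Progenitor replicate 1 was the lowest of its group yet above every niche library, and Rrm2 rose by 3.28 (SE 0.47, adjusted p = 0.00110). Gins1, part of the replicative helicase, rose by 3.38 (SE 0.59, adjusted p = 0.00412). Lig1, the ligase that joins Okazaki fragments, rose by 3.26 (SE 0.57, adjusted p = 0.00429). Cdc6, which loads the helicase at origins, was at 2.88 to 11.3 RPKM against 0.180 to 0.480 RPKM and rose by 2.62 (SE 0.52, adjusted p = 0.00887). Tipin, a replication fork factor, was the uncalled member with the highest level, at 64.7 to 104 RPKM in progenitor libraries. In niche libraries Tipin was at 111 RPKM in replicate 1 and 7.44 to 25.2 RPKM in the others, and its adjusted p was 0.154 with that library and 0.00434 without.

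Among mitotic genes, Cks2, a small subunit of cyclin-dependent kinase complexes, was at 165, 143, 149 and 193 RPKM against 12.3, 12.3, 10.5 and 17.2 RPKM. Both groups were tight, and Cks2 rose by 3.55 (SE 0.33, adjusted p = 0.000131). Hmgb2, a chromatin protein of dividing cells, was at 261, 196, 234 and 274 RPKM against 49.6, 24.6, 23 and 26.0 RPKM and rose by 2.99 (SE 0.34, adjusted p = 0.000321). Pbk, a mitotic kinase, was at 86.6 to 127 RPKM against 53.2 RPKM in niche replicate 1 and 1.89 to 5.74 RPKM in the other niche libraries (3.76, SE 0.76, adjusted p = 0.0104). Niche replicate 1 thus sat between the groups for Pbk. Aurkb, the kinase of the chromosomal passenger complex, was at 13.3 to 30.4 RPKM against 0.434 to 7.33 RPKM (3.04, SE 0.64, adjusted p = 0.0119). Prc1, which bundles microtubules of the central spindle, was at 12.6 to 27.2 RPKM against 0.664 to 5.98 RPKM (2.84, SE 0.59, adjusted p = 0.0116) and lost its call without progenitor replicate 2, 3 or 4 (adjusted p = 0.0510, 0.0569 and 0.0626). H2afz, a histone variant, was at 1006 to 1834 RPKM against 400 to 1269 RPKM, did not pass (1.01, adjusted p = 0.158), and did without niche replicate 1 (1.36, adjusted p = 0.00968) and with the replicate block (adjusted p = 0.00849).

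Genes beside the cycle varied. Cdk6, a kinase that drives entry into S phase, was at 51.9, 87.1, 76.0 and 84.8 RPKM against 4.72, 5.17, 8.63 and 11 RPKM. It rose by 3.22 (SE 0.43, adjusted p = 0.000664). Of 14 tested genes of cell cycle brakes and checkpoints, 2 rose, Gadd45g and Trp53, and none fell. Trp53, the tumour suppressor p53, was at 66.5 to 85.9 RPKM against 28 to 34.1 RPKM (1.29, SE 0.32, adjusted p = 0.0283). Without progenitor replicate 2, 3 or 4 or niche replicate 2, 3 or 4, adjusted p for Trp53 was 0.0509 to 0.133. With scaling by the median of ratios it was 0.109. Cdkn1b, the inhibitor p27, was at 36.0 to 68.2 RPKM against 10 to 43.3 RPKM and did not pass (1.14, SE 0.48, adjusted p = 0.193). It passed without niche replicate 1 (adjusted p = 0.0134) and without both replicates 1, with array weights and under library size scaling (adjusted p = 0.00824 to 0.0148). Of 20 DNA repair genes 2 rose, Xrcc5 and Xrcc6, which together form the Ku dimer that binds broken DNA ends. Xrcc5 rose by 2.69 (SE 0.63, adjusted p = 0.0225) and Xrcc6 by 2.21 (SE 0.54, adjusted p = 0.0273). Leaving out progenitor replicate 2, 3 or 4 or niche replicate 3 ended both calls, and niche replicate 2 that of Xrcc5 (adjusted p from 0.0534 to 0.112). None of 22 chromatin regulators was called, although 20 were above 0, with a median of 0.81. Of all genes tested, 6.81% were called and 55.7% were above 0.

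Promoters of 6 called genes are shown because the called replication, mitosis and microglial genes belong to programmes with known promoter motifs. E2F factors, which switch on replication genes, bind TTTCCCGC, TTTGGCGC and, overlapping these, TTCCCGCC and TTGGCGCC. The cell cycle homology region of late cycle genes reads TTTGAA or TTCGAA and often lies near CCAAT boxes. PU.1, the factor encoded by Spi1 in myeloid cells, binds GAGGAAGT and GAGGAACT. Windows of RefSeq (GRCm38.p6), from 250 bases before to 50 after a start, were searched on both strands. They are printed in the direction of transcription, and capitals mark the matches, which on the opposite strand appear as the reverse complement. For Pclaf and Cdc6 the capitals are E2F letters, for Hmgb2 and Prc1 they are cell cycle homology and CCAAT letters, and for Ctss and Siglech, described with the microglial genes, PU.1 letters.
Pclaf, chr9:65890073-65890372, plus strand: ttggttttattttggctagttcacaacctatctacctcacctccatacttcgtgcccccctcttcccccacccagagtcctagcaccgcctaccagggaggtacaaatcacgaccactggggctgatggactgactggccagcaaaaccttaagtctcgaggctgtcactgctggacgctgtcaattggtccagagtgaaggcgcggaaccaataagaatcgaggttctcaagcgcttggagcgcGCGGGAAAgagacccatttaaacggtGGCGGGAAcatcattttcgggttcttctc
Cdc6, chr11:98907901-98908200, plus strand: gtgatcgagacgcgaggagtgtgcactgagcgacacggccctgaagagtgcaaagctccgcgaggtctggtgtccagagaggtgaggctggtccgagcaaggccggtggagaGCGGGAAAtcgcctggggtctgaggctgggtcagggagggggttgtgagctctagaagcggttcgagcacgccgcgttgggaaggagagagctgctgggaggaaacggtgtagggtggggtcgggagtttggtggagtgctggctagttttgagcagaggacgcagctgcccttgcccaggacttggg
Hmgb2, chr8:57511593-57511892, plus strand: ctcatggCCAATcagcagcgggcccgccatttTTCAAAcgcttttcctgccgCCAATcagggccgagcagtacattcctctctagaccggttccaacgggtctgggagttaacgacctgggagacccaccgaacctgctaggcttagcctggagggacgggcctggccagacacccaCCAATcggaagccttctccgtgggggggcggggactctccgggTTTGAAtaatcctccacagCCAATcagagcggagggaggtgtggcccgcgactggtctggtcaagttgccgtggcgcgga
Prc1, chr7:80294201-80294500, plus strand: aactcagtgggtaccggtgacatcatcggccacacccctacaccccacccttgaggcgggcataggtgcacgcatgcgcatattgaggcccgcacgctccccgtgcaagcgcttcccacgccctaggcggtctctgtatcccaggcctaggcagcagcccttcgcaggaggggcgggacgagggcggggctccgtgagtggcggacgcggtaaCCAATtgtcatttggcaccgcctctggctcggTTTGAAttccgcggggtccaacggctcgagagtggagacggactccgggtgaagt
Ctss, chr3:95526536-95526835, plus strand: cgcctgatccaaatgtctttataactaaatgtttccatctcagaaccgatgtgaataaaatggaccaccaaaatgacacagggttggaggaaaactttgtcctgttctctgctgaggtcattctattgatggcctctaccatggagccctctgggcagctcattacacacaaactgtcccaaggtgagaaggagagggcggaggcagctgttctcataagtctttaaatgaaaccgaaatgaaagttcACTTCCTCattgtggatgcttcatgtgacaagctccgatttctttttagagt
Siglech, chr7:55767934-55768233, plus strand: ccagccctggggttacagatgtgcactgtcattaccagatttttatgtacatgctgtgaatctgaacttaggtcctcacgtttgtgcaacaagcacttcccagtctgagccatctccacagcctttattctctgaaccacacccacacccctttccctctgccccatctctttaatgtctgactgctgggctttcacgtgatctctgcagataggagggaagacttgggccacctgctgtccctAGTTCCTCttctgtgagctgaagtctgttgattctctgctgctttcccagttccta

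E2F letters were found in 6 of the 9 replication genes called higher that had a window (66.7%) and in 2 of the 17 such mitosis genes (11.8%), against 7.55% of tested genes and 4.34% of all 27025 genes with a window. Cell cycle homology letters stood in 9 of the 17 mitosis genes (52.9%) and in 0 of the 9 replication genes, against 16.1% of tested and 21.7% of all genes. CCAAT stood in 12 of 17 mitosis genes (70.6%) and 5 of 9 replication genes (55.6%), against 41.9% of tested genes. PU.1 letters stood in 2 of the 7 microglia and macrophage genes called lower that had a window (28.6%), Ctss and Siglech, against 5.5% of tested genes. In the same 7 genes, cell cycle homology letters stood in 2 (28.6%) and E2F letters in 1 (14.3%). A match is a string of letters in this window and not a measured binding site, and no test was made of these shares.

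Microglial genes formed the largest group of lower calls among the cell type lists. Of 41 genes listed for microglia and macrophages, 20 were tested, 13 fell in progenitor libraries and none rose, with a median of -2.63. Microglia are the resident immune cells of the brain. Siglech, a sialic acid receptor nearly restricted to microglia in brain, was at 0.237, 1.36, 2.06 and 1.36 RPKM in progenitor replicates 1 to 4 against 167, 159, 103 and 141 RPKM in niche replicates. No progenitor library came near a niche library, and the log2 fold change was -6.04 (SE 0.46, adjusted p = 4.1e-05). Ctss, the lysosomal protease cathepsin S, was at 37.9, 58.1, 46.9 and 64.8 RPKM against 1830, 2275, 1183 and 2547 RPKM (-5.18, SE 0.34, adjusted p = 1.6e-05). Ctss was thus lower yet clearly present in progenitor libraries. Ly86, a partner of a Toll-like receptor homologue, fell by 5.71 (SE 0.54, adjusted p = 0.000131), and Gpr34, a lysophosphatidylserine receptor of microglia, fell by 5.63 (SE 0.59, adjusted p = 0.000229). Trem2, a lipid-sensing receptor, was at 5.67 to 8.01 RPKM against 147 to 446 RPKM (-5.01, SE 0.39, adjusted p = 4.7e-05). Csf1r, the receptor on which microglia depend for survival, was at 5.54 to 26.4 RPKM against 181 to 288 RPKM (-3.94, SE 0.45, adjusted p = 0.000321).

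The list for microglia and macrophages also held 7 uncalled genes, among them Mrc1, Cd163 and Pf4. Mrc1 and Cd163 were chosen after their values were seen, and these genes do not stand for all macrophage genes of the list. Mrc1, the mannose receptor of perivascular and meningeal macrophages, was at 4.27, 12.6, 5.39 and 11.1 RPKM in progenitor and 11.7, 4.55, 4.82 and 10.3 RPKM in niche libraries. Both groups covered the same range, and the log2 fold change was 0.07 (SE 0.56, adjusted p = 0.962). Cd163, a haemoglobin scavenger receptor of the same cells, was at 0.365 to 4.31 RPKM against 0.362 to 2.65 RPKM (0.54, SE 0.57, adjusted p = 0.635). Pf4, a chemokine made by these macrophages and by platelets, was at 34.9 to 121 RPKM against 43.7 to 596 RPKM (-0.92, SE 0.69, adjusted p = 0.484). In lists written after these results were known, 8 of 10 tested microglia-specific genes fell, with a median of -5.01, and 0 of 12 tested border macrophage genes were called, with a median of -0.31. Of all genes tested, 6.81% were called, and the difference between these lists was not tested. Summed over the 10 microglia-specific genes, levels were 84.6 to 99.3 RPKM in progenitor and 1743 to 4647 RPKM in niche libraries. Summed over the 12 border macrophage genes, they were 70.8 to 254 RPKM and 104 to 749 RPKM.

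Genes of antigen presentation, which microglia can express, were lower in part. Of 29 tested genes of major histocompatibility complex (MHC) and interferon response, 1 rose and 3 fell, and 5 fell with the replicate block. H2-DMa, which loads peptide on MHC class II, was at 4.94 to 16.7 RPKM against 100 to 228 RPKM (-4.11, SE 0.45, adjusted p = 0.000256). B2m, the invariant chain of class I, was at 313 to 574 RPKM against 849 to 3471 RPKM (-1.99, SE 0.41, adjusted p = 0.0112). Cd74, the class II chaperone, was at 75.3 to 177 RPKM against 97.7 to 1347 RPKM and did not pass (-1.84, SE 0.66, adjusted p = 0.128). Niche replicate 3 was the low niche library for Cd74, which passed without it (-2.61, adjusted p = 0.0067) and with the replicate block (adjusted p = 0.0149). Ifit3, an interferon-induced gene, went up instead, at 20.0, 34.9, 14.4 and 35.8 RPKM against 1.63, 0.333, 4.77 and 0.626 RPKM (3.42, SE 0.61, adjusted p = 0.00494). Its close copy Ifit3b moved alike (3.33, SE 0.58, adjusted p = 0.00412), and the reads of such copies may have been split between them. Ifit1 of the same family was at 3.60 to 7.95 RPKM against 121 RPKM in niche replicate 1 and 0.285 to 4.68 RPKM in the others (-0.06, adjusted p = 0.985).

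**Figure D3:**
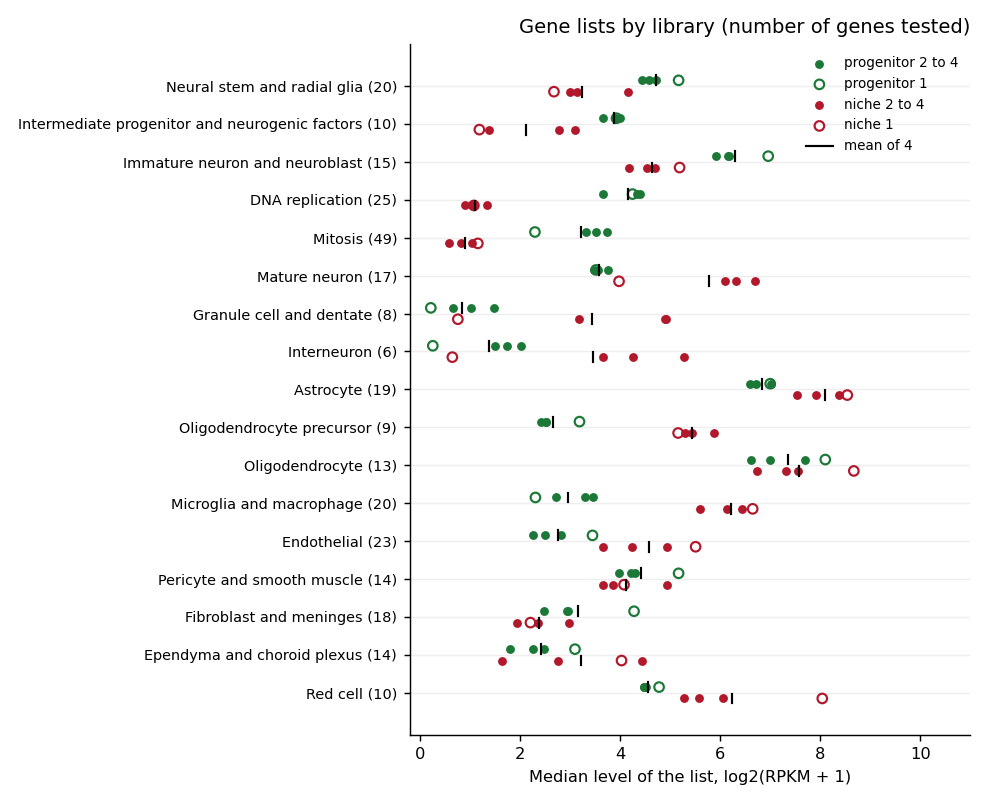
Median level of 17 gene lists in log2(RPKM + 1) (horizontal axis) in each library, with the number of tested genes beside each list, replicate 1 as open circles, replicates 2 to 4 as filled circles and the mean of 4 as a bar. Progenitor libraries lay above all niche libraries for DNA replication (3.65 to 4.39 against 0.90 to 1.34) and below them for microglia and macrophages (2.31 to 3.46 against 5.60 to 6.65), while niche replicate 1 lay with the progenitor libraries for the granule cell and interneuron lists.

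Genes of mature neurons were lower in progenitor libraries. Of 17 tested genes 7 fell and none rose, with a median of -1.82, and 11 fell without niche replicate 1. Leaving out that library took all lower calls from 299 to 712. Slc17a7, the vesicular glutamate transporter of excitatory neurons, was at 0.193, 0.606, 2.20 and 1.34 RPKM in progenitor against 14.8, 79.4, 88.9 and 48.7 RPKM in niche libraries. It fell by 4.65 (SE 0.64, adjusted p = 0.000967). Thy1, a surface glycoprotein of neurons, was at 0.867 to 5.55 RPKM against 21.3 to 140 RPKM (-4.49, SE 0.65, adjusted p = 0.00115). Olfm1, a secreted neuronal glycoprotein, was at 12.9 to 19.3 RPKM against 183 to 372 RPKM (-4.04, SE 0.34, adjusted p = 6.6e-05). Niche replicate 1 was the lowest niche library for all 3 of these genes.

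Granule cell genes were close to the progenitor level in that library. C1ql2, a synaptic organiser of granule cell mossy fibres, was at 0.252, 0.0603, 0.712 and 0.208 RPKM in progenitor against 0.972, 65.4, 69.9 and 73.0 RPKM in niche libraries. Niche replicate 1 was thus near the progenitor level, and the log2 fold change was -4.48 (SE 1.02, adjusted p = 0.0201). Its adjusted p passed the threshold of 0.05 upwards without progenitor replicate 1, 2 or 4 or niche replicate 2, 3 or 4 (adjusted p = 0.0541 to 0.0653). C1ql2 was the only called gene of the 8 tested granule cell genes, whose median was -1.99, against 6 without niche replicate 1 and 3 with the replicate block. Calb1, the calcium-binding protein calbindin of mature granule cells, was at 0.0783 to 1.16 RPKM against 0.453 RPKM in niche replicate 1 and 9.01 to 22 RPKM in the others (adjusted p = 0.0835, and 0.000997 without that library). With the replicate block, adjusted p for Calb1 was 0.0419.

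Genes of synaptic transmission and excitability were also counted with and without niche replicate 1, whose removal took all lower calls from 299 to 712. Of 22 synaptic vesicle genes 3 fell (7 without niche replicate 1), of 16 glutamate and GABA receptor genes 3 fell (12 without it), and of 22 voltage-gated channel genes 5 fell (12 without it), and none rose in these lists. Snap25, a SNARE protein of vesicle release, was at 16.6 to 32.8 RPKM against 88.7 to 228 RPKM (-2.56, SE 0.39, adjusted p = 0.00193). Scn2b, an auxiliary subunit of sodium channels, was at 3.09, 5.35, 7.14 and 6.75 RPKM against 47.6, 119, 227 and 194 RPKM (-4.32, SE 0.52, adjusted p = 0.000384). Kcnd2, an A-type potassium channel, fell by 4.03 (SE 0.50, adjusted p = 0.000467). Gria1, an AMPA receptor subunit, was at 15.5 to 22.1 RPKM against 4.83 RPKM in niche replicate 1 and 108 to 280 RPKM in the other niche libraries, and passed only without that library among the single libraries left out (-1.82, adjusted p = 0.288, against -3.04, adjusted p = 0.000286). Of 23 axon guidance genes 3 fell (7 without niche replicate 1), led by Cntn1, a cell adhesion protein of axons and glia (-3.53, SE 0.48, adjusted p = 0.000866), Epha7, an ephrin receptor (-3.32, SE 0.53, adjusted p = 0.00216), and Unc5a, a netrin receptor (-3.11, SE 0.55, adjusted p = 0.00424).

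Glial genes were counted by lineage, and differences between the lineages were not tested. Of 9 tested genes of oligodendrocyte precursors 6 fell and none rose, with a median of -2.07. Neu4, a sialidase of these precursors, was at 0.0565, 0.933, 0.719 and 0.994 RPKM against 48.3, 47.2, 41.0 and 42.1 RPKM (-4.81, SE 0.49, adjusted p = 0.000169). Tnr, the matrix protein tenascin-R, fell by 3.04 (SE 0.61, adjusted p = 0.0105). Pdgfra, the growth factor receptor that defines the precursors and is also made by fibroblasts, was at 2.60 to 8.16 RPKM against 10.1 to 67.6 RPKM (-2.68, SE 0.63, adjusted p = 0.0230). Its adjusted p was 0.0501 to 0.0815 without progenitor replicate 2, 3 or 4 or niche replicate 2, 3 or 4, and 0.0854 under library size scaling. None of 13 tested genes of mature oligodendrocytes was called, against 6.81% of all genes tested, and their median was -0.29. Mbp, a myelin protein, was at 83.0 to 206 RPKM against 46.0 to 274 RPKM (-0.25, SE 0.53, adjusted p = 0.837). The groups overlapped for Mbp.

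Of 19 tested astrocyte genes 6 fell and none rose, with a median of -0.74. The replicate block gave 9 lower, and library size scaling 2 higher and 4 lower with a median of -0.08. S100b, a calcium-binding protein of mature astrocytes, was at 14.7, 21.1, 32.6 and 20.3 RPKM against 212, 280, 134 and 244 RPKM (-3.24, SE 0.37, adjusted p = 0.000321). Htra1, a secreted protease, was at 21.9 to 42.1 RPKM against 153 to 410 RPKM (-3.09, SE 0.39, adjusted p = 0.000516). Slc4a4, a bicarbonate transporter, fell by 2.47 (SE 0.48, adjusted p = 0.00784), a call lost under library size scaling (adjusted p = 0.0593). Mt1, a metallothionein and the uncalled member with the highest level, was at 2952 to 3715 RPKM against 3544 to 4495 RPKM (-0.32, SE 0.27, adjusted p = 0.525). Aldoc, an enzyme of glycolysis enriched in astrocytes and radial glia, was also uncalled, at 1318 to 1749 RPKM against 998 to 1616 RPKM (0.15, SE 0.29, adjusted p = 0.815), and passed as higher under library size scaling (adjusted p = 0.0329).

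Vascular and meningeal genes were counted by cell type, and differences between these lists were not tested. Of 23 tested endothelial genes 9 fell and none rose, with all 23 below 0 and a median of -1.98. Spock2, a matrix proteoglycan, was at 5.38 to 9.95 RPKM against 43.7 to 98.3 RPKM (-2.95, SE 0.44, adjusted p = 0.00142). Cd34, a surface sialomucin of endothelium, was at 21.1, 6.12, 4.22 and 4.70 RPKM against 120, 38.8, 45.1 and 52.3 RPKM (-2.83, SE 0.56, adjusted p = 0.00955). Replicate 1 was the highest library for Cd34 in both groups. Cldn5, the tight junction protein of brain endothelium, was at 1.19 to 21.3 RPKM against 6.76 to 207 RPKM and did not pass (-3.22, SE 0.97, adjusted p = 0.0709). It passed without progenitor replicate 1 (adjusted p = 0.0343), without niche replicate 4 (0.0263) and with the replicate block (0.00775).

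No gene of the 14 tested for pericytes and smooth muscle was called, against 6.81% of all genes tested, and their median was -0.11. Rgs5, a signalling regulator of pericytes, was at 113 to 160 RPKM against 105 to 260 RPKM (-0.23, SE 0.36, adjusted p = 0.769). Pdgfrb, the growth factor receptor of pericytes, was at 9.33 to 22 RPKM against 1.52 to 11 RPKM (0.99, SE 0.60, adjusted p = 0.379). Of 18 tested genes of fibroblasts and meninges 5 rose and 2 fell, with a median of 0.76, the 2 being Pdgfra and Igfbp2. Under library size scaling 8 rose and 0 fell. Fmod, a collagen-binding proteoglycan, was at 22.8, 11.1, 5.24 and 9.72 RPKM in progenitor against 0.200, 0.592, 0.203 and 0.480 RPKM in niche libraries (3.12, SE 0.55, adjusted p = 0.00427). Slc22a6, an organic anion transporter, was at 3.97 to 7.93 RPKM against 0.0295 to 2.15 RPKM (2.22, SE 0.53, adjusted p = 0.0255). Dcn, the proteoglycan decorin, was at 41.5 to 84.5 RPKM against 4.44 to 27.8 RPKM (2.18, SE 0.55, adjusted p = 0.0329). Slc22a6 lost its call without progenitor replicate 2, 3 or 4 or niche replicate 2 or 4 (adjusted p = 0.0626 to 0.0864), and Dcn without any 1 progenitor library or niche replicate 3 or 4 (adjusted p = 0.0508 to 0.114). Dcn also lost it with scaling by the median of ratios (adjusted p = 0.0782) and with no filter (adjusted p = 0.0545). Col1a2, a fibrillar collagen chain of fibroblasts, was at 5.59 to 30.3 RPKM against 2.08 to 10.4 RPKM and did not pass (1.06, SE 0.66, adjusted p = 0.396).

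In the list of ependyma and choroid plexus, 2 of 14 tested genes rose and 4 fell, with a median of -0.75. Ttr, the thyroid hormone carrier made in bulk by choroid plexus, was at 69.5, 135, 441 and 159 RPKM against 9004, 3767, 8344 and 6162 RPKM (-5.32, SE 0.50, adjusted p = 0.000131). Kcne2, a potassium channel subunit of the same epithelium, was at no more than 1.82 RPKM against 10.6 to 59.6 RPKM (-4.18, SE 0.64, adjusted p = 0.00180), and Sostdc1, a secreted BMP and Wnt antagonist, fell by 3.38 (SE 0.70, adjusted p = 0.0117). Ccdc153, a component of motile cilia, was at 20.1, 5.28, 6.92 and 4.78 RPKM in progenitor libraries against 0, 0.0535, 0.133 and 0.126 RPKM in niche libraries. The niche values of Ccdc153 are 0, 1, 2 and 1 reads, under the floor of 3 reads that a count of 0 allows (3.04, SE 0.53, adjusted p = 0.00424). 1500015O10Rik, the uncalled member with the highest level, was at 101 to 258 RPKM against 27 to 94.2 RPKM, without overlap (1.49, SE 0.44, adjusted p = 0.0668), and passed with the replicate block (0.0372) and without niche replicate 1 (0.0471) or 3 (0.0389).

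Among 10 tested red cell genes 3 fell and 1 rose, with a median of -1.57, and the 3 that fell had the largest log2 fold changes of all genes called. The gene that rose was Prdx2, a peroxiredoxin made in many cell types, at 363 to 765 RPKM against 106 to 213 RPKM (1.41, SE 0.36, adjusted p = 0.0353). Leaving out any 1 library other than niche replicate 1 ended that call (adjusted p = 0.0523 to 0.0819). Scaling by the median of ratios (adjusted p = 0.0965) and no filter on low values (adjusted p = 0.0521) ended it too. Hba-a1, an alpha-globin gene, was at 1378, 428, 267 and 244 RPKM in progenitor against 472847, 76657, 15841 and 44261 RPKM in niche libraries (-7.32, SE 0.86, adjusted p = 0.000340). Hba-a2, a near-identical copy whose reads may have been split with it, fell by 7.31 (SE 0.87, adjusted p = 0.000346). Alas2, the first enzyme of haem synthesis in red cells, was at 1.36, 2.33, 1.14 and 1.24 RPKM against 1756, 337, 88.1 and 193 RPKM (-7.01, SE 0.73, adjusted p = 0.000229). In niche replicates 1 to 4 the alpha-globin genes together held 33%, 10.9%, 2.62% and 6.81% of the reads of the genes in the table. In progenitor replicates 1 to 4 they held 0.228%, 0.0918%, 0.0574% and 0.0523%. The means were 13.3% ± 13.5 and 0.107% ± 0.0822 (SD, n = 4 each), and the exact two-sided permutation p was 0.0286, the smallest that 4 against 4 allows. Over the 4 same-numbered pairs, which all had the lower share in the progenitor library, the exact two-sided p was 0.125, the smallest that 4 pairs allow. The share moved with the group and with niche replicate 1, and its part in the other results was not tested. Scaling computed without globin and mitochondrial genes gave 263 higher and 299 lower calls.

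**Figure D4:**
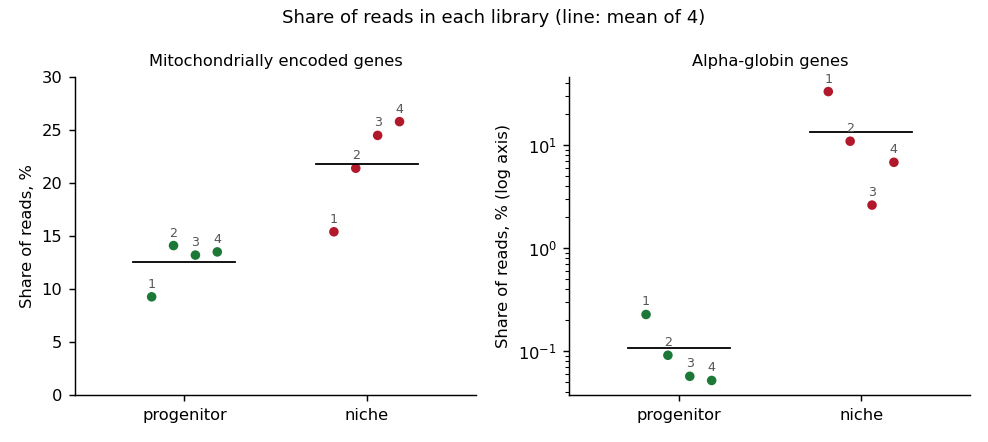
Share of reads (%) of mitochondrially encoded genes (left, linear axis) and of both alpha-globin genes (right, log axis) in each library. Shares are of the reads of the genes in the table, with the replicate number at each point and a line at the mean of 4. All 4 niche libraries lie above all 4 progenitor libraries in both panels, and niche replicate 1 has the highest globin share, 33%.

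Mitochondrially encoded RNA was lower in progenitor libraries. Its share of the reads of the genes in the table was 9.26%, 14.1%, 13.2% and 13.5% in progenitor replicates 1 to 4. In niche replicates 1 to 4 it was 15.4%, 21.4%, 24.5% and 25.8%. The means were 12.5% ± 2.19 in progenitor and 21.8% ± 4.65 in niche libraries (SD, n = 4 each). The groups did not overlap (exact two-sided permutation p = 0.0286, adjusted p = 0.0286 over the 2 shares, and exact p = 0.125 over the 4 pairs). By gene, 11 of 14 fell and all 14 were below 0, with a median of -1.55, and 8 fell under library size scaling. mt-Nd1, a subunit of complex I, was at 3616, 3994, 3881 and 3898 RPKM against 19398, 14825, 14361 and 17483 RPKM (-2.09, SE 0.26, adjusted p = 0.000442). mt-Rnr1, the small ribosomal RNA of mitochondria, fell by 1.89 (SE 0.31, adjusted p = 0.00294). mt-Nd3, another subunit of complex I, was at 2715 to 7879 RPKM against 6503 to 18856 RPKM and did not pass (-1.20, SE 0.44, adjusted p = 0.135). It passed without progenitor replicate 1 (adjusted p = 0.0392) and with the replicate block (0.000158).

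Of 18 nuclear genes of oxidative phosphorylation 16 were below 0 and 0 were called, with a median of -0.40, while 4 fell with the replicate block and 8 without both replicates 1. Their difference from the mitochondrially encoded genes was not tested. Of 11 tested glycolysis genes 3 fell, and 5 with the replicate block. Slc2a1, the glucose transporter of the blood-brain barrier and astrocytes, was at 34.6 to 41.7 RPKM against 105 to 575 RPKM (-2.33, SE 0.48, adjusted p = 0.0108). No cytosolic ribosomal protein gene of 42 was called and their median was 0.02, but library size scaling called 25 of them higher, so their direction rests on the scaling. Among 20 splicing factors 1 rose, and 4 rose and 1 fell with the replicate block. Hnrnpa1, which binds pre-mRNA, was at 466 to 624 RPKM against 135 to 178 RPKM (1.90, SE 0.29, adjusted p = 0.00152). Of 17 immediate early genes, which respond to activity and to tissue dissociation, 2 fell, against 1 with the replicate block and 0 under library size scaling. Fos, the best known of them, was at 21.0, 198, 147 and 175 RPKM against 13, 148, 84.8 and 87.5 RPKM (0.71, SE 0.79, adjusted p = 0.659), and replicate 1 was the lowest library in both groups.

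**Figure D5:**
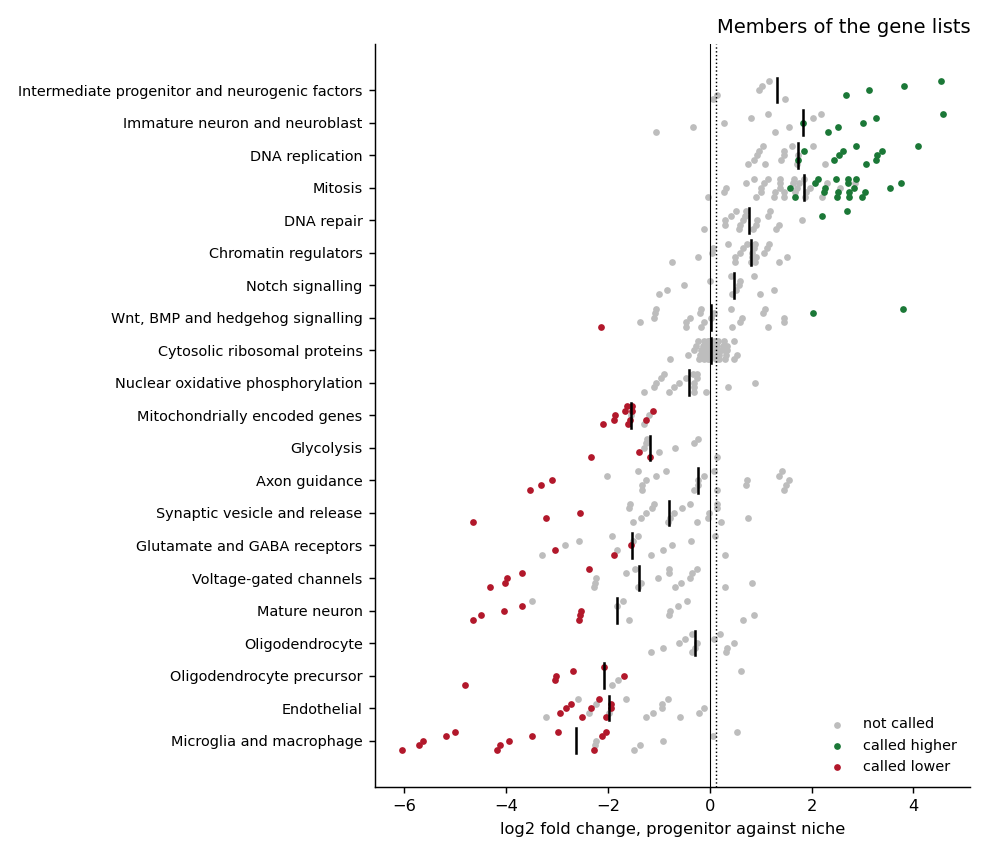
Log2 fold change, progenitor against niche, of each tested member of 21 gene lists, with green points for members called higher, red for called lower, grey for not called, a bar at the median of the list and a dotted line at the median of all genes (0.12). Members of the replication and mitosis lists lie almost wholly to the right, with medians of 1.74 and 1.86, and ribosomal protein genes lie around 0.02.

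The largest differences outside these lists included RNAs that do not code for protein. Hopxos (chr5:77094532-77102303, plus strand) lies wholly within Hopx on the opposite strand and was at 137, 79.4, 65.9 and 79.4 RPKM against 5.44, 0.556, 6.23 and 0.654 RPKM (4.73, SE 0.60, adjusted p = 0.000576). Gm26755 (chr2:79453985-79461107, plus strand) overlaps Neurod1, a proneural factor of granule cell precursors, over 2767 bases on the opposite strand, and was at 742, 909, 896 and 678 RPKM against 18.5, 3.77, 89.3 and 106 RPKM (4.70, SE 0.79, adjusted p = 0.00333). Hopx and Neurod1 themselves were not analysed here. Whether the counting used strand is not known, so reads of such a gene and its partner cannot be told apart. Other named genes also overlap a gene on the opposite strand by annotated span. They include Pclaf (Trip4, 13030 bases), Gngt2 (Abi3, 5261 bases), Gpr34 (Cask, 8770 bases) and Alas2 (Apex2, 23264 bases). Xrcc6 (Desi1, 41340 bases), Prc1 (Rccd1, 21810 bases) and Htra1 (Fgfr2, 49550 bases) do so too. None of these partners was in the table. Adora3 overlaps Tmigd3 on the same strand over 38024 bases. Lockd (chr6:134929092-134956798), a long RNA beside Cdkn1b, was at 72.0 to 109 RPKM against 1.12 to 8.95 RPKM (4.36, SE 0.50, adjusted p = 0.000337). Gm15428, Gm10087 and Gm2862 are processed pseudogenes that rose by 4.73, 3.79 and 3.77, and their reads may come from the genes they were copied from. Gm24463, a small nucleolar RNA of at most 52 reads in a library, and Gm22408, a microRNA locus of at most 170 reads inside Plppr4, are uncertain for their low counts. Processed pseudogenes made up 6.53% of the higher calls and 6.19% of the genes tested.

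Other protein-coding genes reached the largest changes. Ptx3, a secreted pattern recognition protein, was at 55.4, 23.4, 17.9 and 27.3 RPKM against 1.39, 0.427, 0.242 and 0.457 RPKM (4.22, SE 0.55, adjusted p = 0.000607). On the lower side, Grp, the precursor of gastrin-releasing peptide in excitatory neurons, was at 0.188 to 1.78 RPKM against 51.2 to 90.3 RPKM (-5.19, SE 0.52, adjusted p = 0.000152). Gngt2, a G protein gamma subunit, fell by 5.67 (SE 0.53, adjusted p = 0.000131). Slc2a5, a fructose transporter of microglia, fell by 5.04 (SE 0.69, adjusted p = 0.000899) and Adora3, an adenosine receptor, by 5.02 (SE 0.74, adjusted p = 0.00141). Csf3r, the receptor of granulocyte colony-stimulating factor, was the only called gene of 3 tested for lymphocytes, neutrophils and platelets (-3.49, SE 0.59, adjusted p = 0.00322).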

How the data were processed

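Expression was measured by polyA RNA sequencing of sorted cells. The authors deposited log2(RPKM + 1) values by Ensembl gene, with mm10 and GRCm38 named in the submitters' processing notes; aligner, read counter and use of strand: not given in the sources used here. Whole reads were recovered from the steps of the deposited log2 values (100% whole at a tolerance of 1e-05). Every named gene with an annotated overlap lay on the plus strand. None of the genes that overlap them on the minus strand was in the table. The log2(TMM-scaled RPKM + 1) values of the 8 libraries were tested with limma 3.58.1 in R 4.3.3 (trended, robust), with Benjamini-Hochberg adjustment at 0.05, on genes with at least 0.653 CPM in 4 libraries and 15 reads in total. A count of 0 allows up to 3 reads, and such limits cover counting error only. Only the 2 groups compared entered the fit, since niche libraries spread more.

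The design text says that the 3 populations came from each of 4 replicates, so the numbers pair the libraries. The main fit and the permutation test of the shares did not use this pairing. Deviations of same-numbered libraries correlated at 0.179, 0.0341, 0.224 and 0.0992 for replicates 1 to 4. The replicate block, other scalings, pseudocounts, filters, voom, array weights and leaving out libraries were alternatives.

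Genes were named by 3 rules: the 15 largest changes in each direction among called genes without overlap and with a mean of at least 10 RPKM in the higher group; in each of 36 lists, the 4 largest called changes and the uncalled member with the highest level; and the sort markers. Mrc1, Cd163, Mbp, Cdk6, Nes, Sox2, Grn, Ctsh, Ifit3b, Ifit1, Cldn5, Calb1, Cdc6, Pax6, Csf1r, Prc1, Rgs5, Pdgfrb, Col1a2, Cdkn1b and Igfbp2 were chosen after their values were seen. The members and lists were chosen with earlier results of these data known. On simulated data (8467 genes), the fit recovered 53.5% of 99 genes changed by 2 and 100% of 100 genes changed by 4 on the log2 scale. It also called 7 unchanged genes. The simulation gave both groups the same spread and set no library apart, unlike the data. Its shares therefore do not give the power of the comparison made here.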

Additional observations from a re-analysis of the deposited data

Results flagged for a closer look

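Of 82 groups of 4 values, which were list medians and the 2 shares of reads, 10 held a library whose gap to the nearest other library was above Dixon's 95% critical value as a share of the range, and chance flags about 1 in 20 groups. All 10 were list medians of replicate 1 libraries. Values are list medians in log2(RPKM + 1). Niche replicate 1 was high for the sort markers and LPA receptors at 3.93 (others 2.11 to 2.38) and for nuclear oxidative phosphorylation at 8.51 (others 7.71 to 7.82). It was low for synaptic vesicle genes at 1.23 (others 4.55 to 4.91) and for voltage-gated channels at 0.82 (others 3.67 to 3.80). Progenitor replicate 1 was high for oligodendrocyte precursors at 3.19 (others 2.42 to 2.53), red cells at 4.78 (others 4.47 to 4.52), cytosolic ribosomal proteins at 10.45 (others 9.27 to 9.35) and nuclear oxidative phosphorylation at 8.26 (others 7.27 to 7.36). It was low for chromatin regulators at 3.32 (others 3.87 to 3.96) and voltage-gated channels at 0.69 (others 1.25 to 1.30).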

How the results depend on the processing

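Against 245 higher and 299 lower calls, the fit of all 12 libraries gave 498 and 470, array weights 806 and 907, leaving out both replicates 1 gave 721 and 921, and library size alone gave 891 higher and 202 lower. Leaving out 1 library at a time gave 110 to 461 higher and 184 to 712 lower. The replicate block gave 291 higher and 413 lower, of which 225 and 289 were shared with the calls of the fit without it. The cause of these shifts was not tested. Of 115 named genes called, 86 were called under every alternative run, 29 lost the call under at least 1, and 0 changed sign. The difference in mitochondrial share was -9.28 percentage points and -11.4 to -7.93 with 1 library left out, and that in alpha-globin share was -13.2 and -16.8 to -6.65; each p was then 0.0571, the smallest that 3 against 4 allows. With the replicate block, by an exact test over pairs chosen after seeing the data, the same differences (-9.28 and -13.2) had p = 0.125, the smallest that 4 pairs allow.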

Other observations

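Lysosomal genes, in a list written after the results were seen, were lower in progenitor libraries for 32 of 35 tested, of which 16 fell and none rose, with a median log2 fold change of -1.31 and 9 falling under library size scaling. Grn, the lysosomal protein progranulin, was at 57.4, 69.7, 52.3 and 59.5 RPKM in progenitor against 318, 213, 169 and 230 RPKM in niche libraries, and fell by 1.92 on the log2 scale (SE 0.31, limma adjusted p = 0.00265). Ctsh, the protease cathepsin H, was at 10.4 to 43.0 RPKM against 70.3 to 205 RPKM and fell by 2.50 (SE 0.50, limma adjusted p = 0.00970). Microglia also express many lysosomal genes, and the part of these cells in the difference was not tested.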
